A study of Mus musculus with 6 samples.

Results

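Ebf1, Ebf2, Ebf3, Skor1, Ski and Skil were followed in cells sorted from the mouse ventral midbrain, 3 of them early B-cell factors and 3 members of the Ski family of transcriptional co-repressors. All probe sets whose platform annotation gave exactly one of these symbols were taken, which gave 17 probe sets for 6 genes, of 34957 probe sets and 18201 genes with a single symbol. The 2 families were picked because Ebf2 and Skor1 are higher in one of the sorted populations, so the differences of their members in this contrast are given as descriptions, without a test. The study measured RNA on 6 arrays, 3 from GFP-positive cells of Ngn2-GFP mice of strain CD1/129, a reporter line for Neurog2 (Ngn2), which drives neurogenesis, and 3 from GFP-negative cells of Lmx1a-GFP mice of strain C57BL/6, a reporter line for Lmx1a, a factor of dopaminergic progenitors. All cells came from the ventral mesencephalon at embryonic day 12.5 and were separated by flow cytometry. The labels name the positive cells as midbrain dopaminergic progenitors and the negative cells as a non-dopaminergic progenitor population, and the series' design text calls the 3 arrays of each group biological replicates. Strain, mouse line and sort gate differ together between the groups and cannot be told apart.

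Ebf proteins are helix-loop-helix transcription factors that bind DNA as dimers. They were found in B lymphocytes, where Ebf1 directs lineage commitment, and in olfactory neurons, and in the developing nervous system they are expressed in young neurons downstream of proneural factors such as Neurog2. Ski and SnoN, the product of Skil, bind Smad proteins and recruit co-repressors with histone deacetylases, which dampens transcription driven by TGF-beta and related ligands. Skor1, also known as Corl1 or Lbxcor1, shares the Ski-type domain and is known as a co-repressor of the homeobox factor Lbx1 in the dorsal spinal cord.

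Every array had the same trimmed mean signal of 100, and median signal lay between 18.1 and 25.5. Lmx1a, whose direction the gate favours, was higher in positive cells by at least 9.65-fold, taking the 40th percentile of each array as the lowest measurable level (adjusted p = 0.00167, limma). Th, the rate-limiting enzyme of dopamine synthesis, gave 188, 214 and 118 on the positive arrays, against 12.2, 1.44 and 10.5 on the negative arrays, and was also higher (adjusted p = 0.00413). Its negative signals lay under the 40th percentile on 2 arrays and just above it on the other, so no size is given. Neurog2 gave 706, 585 and 500.4 on the positive arrays, against 338, 388 and 334 on the negative arrays, and did not pass (log2 difference 0.75, SE 0.21, adjusted p = 0.155). Hybridization spike-ins, control transcripts added before hybridization, had a geometric mean signal of 5018 on positive replicate 3, of 2293 and 2352 on the other positive arrays, and of 4254 to 6560.5 among negative ones. Positive replicate 3 was therefore the only positive array on the higher side of this split. Values from it alone are given beside the main ones for the tested probe sets of the followed genes. RNA per array was measured in sorted bulk cells, so fewer cells of a type and less RNA per cell cannot be told apart.

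Ebf2 was higher in positive cells in all 3 of its probe sets, and the groups did not overlap in any of them. Ebf2 acts in the mouse in the migration and differentiation of several kinds of neurons and in brown fat. The brightest probe set, 1449102_at, gave signals of 919.6, 761 and 675 on the 3 positive arrays, against 349, 254 and 260.1 on the 3 negative arrays. Its mean was 785 ± 124 in positive and 288 ± 52.8 in negative cells (SD, n = 3 each). The lowest positive array stood well above the highest negative one. The log2 difference, positive minus negative here and throughout, was 1.45 (SE 0.22), or 2.74-fold. The second probe set, 1418494_at, gave 354, 412 and 394 on the positive arrays, against 118, 133 and 164 on the negative arrays, a difference of 1.49 (SE 0.23). The third, 1449101_at, gave 143, 127 and 95.2 on the positive arrays, against 71.2, 20.4 and 39.2 on the negative arrays, with a difference of 1.64 (SE 0.42) and, relative to its mean, the widest spread of the 3 among negative arrays. The 3 probe sets thus gave folds of 2.74, 2.81 and 3.12. With positive replicate 3 as the only positive array, the differences were 1.25, 1.52 and 1.31 in the same order.

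Skor1 was also higher in positive cells in its brighter probe set. Its probe set 1437880_at gave 468, 494 and 888 on the positive arrays, against 168, 151 and 195 on the negative arrays. Positive replicate 3 stood apart from the other 2 positive arrays, at 1.85 times their mean, and the groups did not overlap. The means were 617 ± 235 in positive and 171 ± 21.9 in negative cells (SD, n = 3 each), and the difference was 1.79 (SE 0.26), or 3.46-fold. Without positive replicate 3 the difference was 1.50, and with it as the only positive array 2.38, so its size depended on that array while its direction did not. The Ebf2 difference was 1.55 without that array, so which of these genes differed more turned with it. A second Skor1 probe set, 1460100_at, gave 11.0, 7.99 and 9.15 on the positive arrays, against 13.4, 10.7 and 1.62 on the negative arrays. These values lay under the 40th percentile of signals on every array, the level taken as the filter for dim probe sets, so the second probe set carries no comparison and the Skor1 difference rests on 1437880_at.

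**Figure D1:**
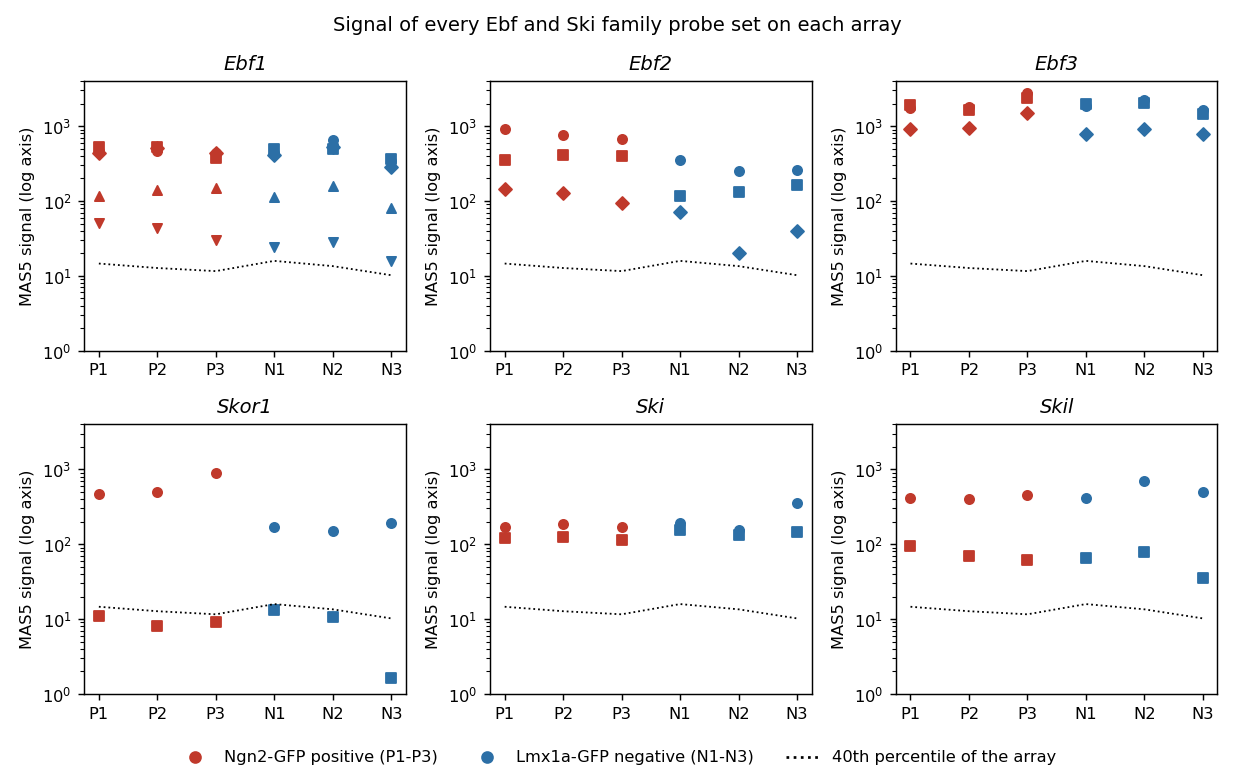
MAS5 signal (log axis) of the 17 probe sets on the 3 Ngn2-GFP positive (P1 to P3, red) and 3 Lmx1a-GFP negative arrays (N1 to N3, blue), 1 panel per gene and 1 symbol per probe set, with the 40th percentile of each array dotted. All 3 Ebf2 probe sets and the brighter Skor1 probe set lie higher on every positive array, whereas the other genes show little separation, and the dimmer Skor1 probe set lies under the dotted line on every array.

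The sequences before the annotated starts of Skor1 and its relative Ski are shown because one of these genes differed between the populations and the other overlapped in its brightest probe set. They are the 250 bases before the start in RefSeq on GRCm38.p6, 5′ to 3′ on the gene's strand, with CG dinucleotides in capitals. Skor1 has several annotated starts, and the outermost is shown, chr9:63148962-63149211 on the minus strand. The Ski sequence is chr4:155222536-155222785, also on the minus strand.
Skor1: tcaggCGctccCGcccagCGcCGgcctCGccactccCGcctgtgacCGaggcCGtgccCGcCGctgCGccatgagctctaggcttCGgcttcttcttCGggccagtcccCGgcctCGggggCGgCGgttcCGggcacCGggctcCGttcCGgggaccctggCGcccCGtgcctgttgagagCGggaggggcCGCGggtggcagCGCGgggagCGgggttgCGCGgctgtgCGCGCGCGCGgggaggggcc
Ski: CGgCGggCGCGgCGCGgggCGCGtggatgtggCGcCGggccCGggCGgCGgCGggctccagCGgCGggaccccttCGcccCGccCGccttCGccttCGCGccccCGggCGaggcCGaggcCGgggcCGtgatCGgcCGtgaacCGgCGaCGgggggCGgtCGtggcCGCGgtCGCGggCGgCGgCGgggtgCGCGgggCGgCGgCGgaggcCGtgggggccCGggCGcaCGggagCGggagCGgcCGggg
These 2 stretches are rich in CG dinucleotides, with 36 in Skor1 and 53 in Ski, against a median of 6 over 32851 promoters, and 2.58% and 0.0365% of promoters hold as many. GC content was 78.8% for Skor1 and 87.6% for Ski, against a median of 52.4%. The table matched 4 of the 6 genes, Ebf1, Ebf3, Skor1 and Ski. The other 2 annotated starts of Skor1 held 14 and 12 CG dinucleotides, and 29.4% and 33.5% of promoters hold at least as many. The same stretch held 43 for Ebf3 and 9 and 14 for the 2 annotated starts of Ebf1. In the whole 300-base windows, which reach 50 bases past the start, motifs were searched on both strands in the 7 windows of these 4 genes, of which 2 Skor1 windows overlap over most of their length, so that the 7 are not separate. The palindromic motif TCCCNNGGGA, which Ebf proteins bind, was in none of the 7 and in 0.9% of all windows. The proneural E-box CAGATG was in none of the 7 and in 17.15% of all windows. A second proneural E-box, CATATG, was in none of the 7 and in 3.91% of all windows. The letters CAGAC, a core that Smad proteins bind, were in none of the 7 and in 49.59% of all windows. No motif contained another.

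Ebf1, which in the mouse midbrain has been linked to the migration of dopaminergic neurons, showed little difference. The brightest of its 5 probe sets, 1416301_a_at, gave 464, 462 and 438 on the positive arrays, against 443, 660.3 and 346 on the negative arrays, a difference of -0.04 (SE 0.24). The 3 positive values lay inside the range of the negative ones, with means of 455 ± 14.7 in positive and 483 ± 161 in negative cells (SD, n = 3 each). Probe set 1448293_at gave 529, 524 and 375 on the positive arrays, against 492, 499 and 367 on the negative arrays (0.07, SE 0.23). Probe set 1439789_at gave 440.5, 516 and 435 on the positive arrays, against 413, 529 and 282 on the negative arrays (0.23, SE 0.25). Both overlapped, and in each the lowest signal of all was on negative replicate 3. Probe set 1416302_at overlapped as well, with 115, 142 and 149 on the positive arrays, against 112, 158 and 81.7 on the negative arrays (0.25, SE 0.29). The dimmest, 1457441_at, gave 50.2, 43.1 and 29.7 on the positive arrays, against 24.2, 28.4 and 15.7 on the negative arrays, and its groups did not overlap, by the narrow gap between 29.7 and 28.4. Its difference was 0.86 (SE 0.45), so the 5 probe sets disagree in size, and those with signals above 100 on most arrays showed the smaller values. From positive replicate 3 alone, the 5 differences were -0.09, -0.26, 0.14, 0.40 and 0.43 in the same order.

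Ebf3, which like the other early B-cell factors is expressed in young neurons, also overlapped between the groups in all 3 probe sets. Probe set 1428349_s_at gave 1763, 1806 and 2735 on the positive arrays, against 1847, 2208 and 1662 on the negative arrays, with means of 2101 ± 549 and 1906 ± 278 (SD, n = 3 each) and a difference of 0.12 (SE 0.24). Probe set 1460666_a_at gave 1931, 1631 and 2342 on the positive arrays, against 1969, 2018 and 1438 on the negative arrays, and differed by 0.12 (SE 0.23). Probe set 1452751_at gave 912, 944 and 1509 on the positive arrays, against 783, 919 and 792 on the negative arrays, a difference of 0.40 (SE 0.23). In all 3 probe sets positive replicate 3 had the highest signal of the 6 arrays, at 1.53, 1.32 and 1.63 times the mean of the other 2 positive arrays. The same ratio was 1.85 for Skor1 and 0.80, 1.03 and 0.71 for the Ebf2 probe sets. With positive replicate 3 as the only positive array, the Ebf3 differences were 0.53, 0.39 and 0.86, and without it the first was -0.08. That array also carries the higher spike-in signal, whose part in this pattern was not tested.

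Ski had slightly lower signals in positive cells, within or near the spread of the arrays. Its brighter probe set, 1429192_at, gave 171, 184 and 169 on the positive arrays, against 189.5, 156 and 358 on the negative arrays. The difference of -0.33 (SE 0.29) rested on negative replicate 3, without which it was 0.02. The SD was 8.09 around a mean of 174 in positive cells and 109 around a mean of 235 in negative cells (n = 3 each). The other probe set, 1426373_at, gave 123, 126 and 113 on the positive arrays, against 156, 132 and 145 on the negative arrays. There the groups did not overlap, but the difference was small, at -0.26 (SE 0.24). From positive replicate 3 alone, the Ski differences were -0.38 and -0.35 in the same order.

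The 2 probe sets of Skil, itself a target of TGF-beta signalling, went opposite ways. Probe set 1452214_at gave 417, 403 and 447 on the positive arrays, against 415, 691 and 493 on the negative arrays, a difference of -0.30 (SE 0.22). Its mean was 422 ± 22.8 in positive and 533 ± 142 in negative cells (SD, n = 3 each), so here, as for the brightest Ebf1 and Ski probe sets, the negative arrays were the more variable ones. Probe set 1422054_a_at gave 94.9, 69.7 and 61.1 on the positive arrays, against 65.8, 79.3 and 35.9 on the negative arrays, a difference of 0.37 (SE 0.36). Groups overlapped in both, and their mean put Skil at 0.03, so no direction can be given for this gene. From positive replicate 3 alone, the Skil differences were -0.22 and 0.09 in the same order.

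Over the 16 probe sets above the filter, 5 had all positive arrays higher, 1 had all positive arrays lower and 10 overlapped. Among all 27738 tested probe sets 7.96% had every positive array higher and 5.98% every positive array lower. The 5 were the 3 of Ebf2, 1 of Skor1 and the dimmest of Ebf1. With 1 probe set per gene, the fit called 2 of the 6 genes, Ebf2 and Skor1, both higher, and 1.06% of 12047 genes (0.423% higher). Without the filter, or without a trend in the variance model, 0 of the 6 were called. The 2 fits on the spike-in split rest on positive replicate 3 as the only positive array. Calls of these genes in them are not counted, and they gave differences of 1.25 for Ebf2 and 2.38 for Skor1. Since these families were chosen from this contrast, nothing is read from the 2 calls.

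**Figure D2:**
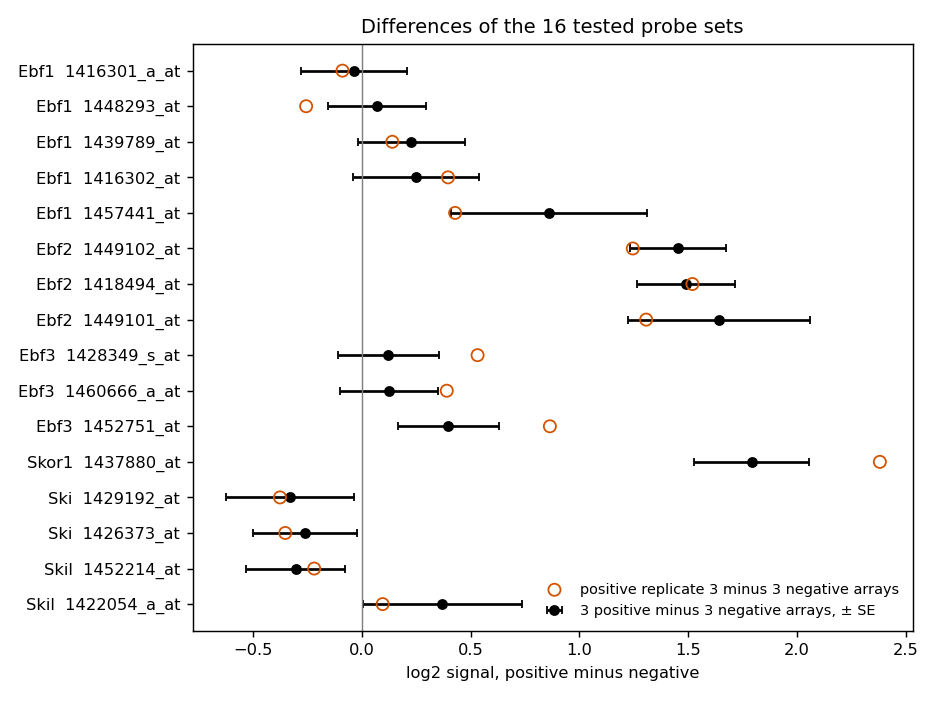
Log2 difference, positive minus negative, of the 16 tested probe sets (filled, with SE, 3 arrays per group) and of positive replicate 3 alone minus the 3 negative arrays (open). The 3 Ebf2 probe sets lie between 1.45 and 1.64 and Skor1 at 1.79, or 2.38 from positive replicate 3 alone; the others lie between -0.33 and 0.86.

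**Figure D3:**
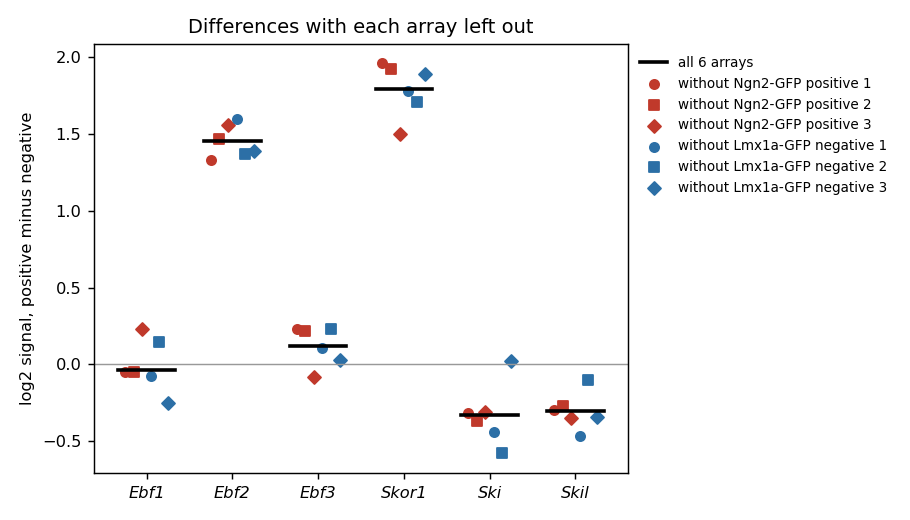
Log2 difference of the brightest probe set of each gene with all 6 arrays (bars) and with each array left out (symbols, red for a positive and blue for a negative array). Ebf2 stays between 1.33 and 1.60 and Skor1 between 1.50 and 1.96, while Ebf1, Ebf3 and Ski have values on both sides of 0.

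Leaving out 1 array at a time kept Ebf2 between 1.33 and 1.60 and Skor1 between 1.50 and 1.96. The ranges were -0.25 to 0.23 for Ebf1, -0.08 to 0.23 for Ebf3, -0.58 to 0.02 for Ski and -0.47 to -0.10 for the brighter Skil probe set. The direction of Ebf1, Ebf3 and Ski thus changed with the arrays included.

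The profiles of Ebf2 and Skor1 over the arrays, each taken from the brightest probe set, were not the same. Likeness was measured as the root mean square difference between log2 signals, each centred on its mean over the 6 arrays, among 12047 tested genes. Ebf2 and Skor1 differed by 0.48, which placed Skor1 403rd among the genes nearest to Ebf2 and Ebf2 40th among those nearest to Skor1. For Ebf2 these distances are those of 1449102_at, with positive replicate 3 at 0.80 times the mean of the other 2 positive arrays. That ratio was 1.03 in 1418494_at and 0.71 in 1449101_at. Distances and nearest genes may therefore depend on the probe set and on that array, which was not tested. Nearest to Ebf2 was Samd5, at 0.096, with 543, 470.5 and 422 on the positive arrays, against 217, 154 and 134 on the negative arrays. En1, a homeobox factor needed for midbrain development and dopaminergic neuron survival, followed at 0.14, with 504, 529 and 382 on the positive arrays, against 202, 169 and 177 on the negative arrays. Fras1, an extracellular matrix protein, came next at 0.14 and was dimmer, with 43.9, 32.3 and 37.3 on the positive arrays, against 17.5, 12.3 and 14.9 on the negative arrays. These 3 genes, like 1449102_at of Ebf2, had every positive array above every negative one.

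Nearest to Skor1 was Cbln4, a secreted synaptic organizer of the cerebellin family, at 0.22, with 122, 117 and 175 on the positive arrays, against 34.9, 29.9 and 57.9 on the negative arrays. Alcam, a cell adhesion molecule of growing axons, followed at 0.27, with 553, 611 and 695 on the positive arrays, against 151, 181 and 250.5 on the negative arrays. Cntnap4, a contactin-associated cell surface protein, came next at 0.27, with 17.8, 13.7 and 32.7 on the positive arrays, against 7.77, 4.81 and 5.26 on the negative arrays, where all 3 values lay under the filter level. All 3 shared with Skor1 the highest signal on positive replicate 3. The nearest genes were picked for likeness in this contrast and are described without a test, and a distance over 6 arrays reflects mainly the difference between the groups.

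**Figure D4:**
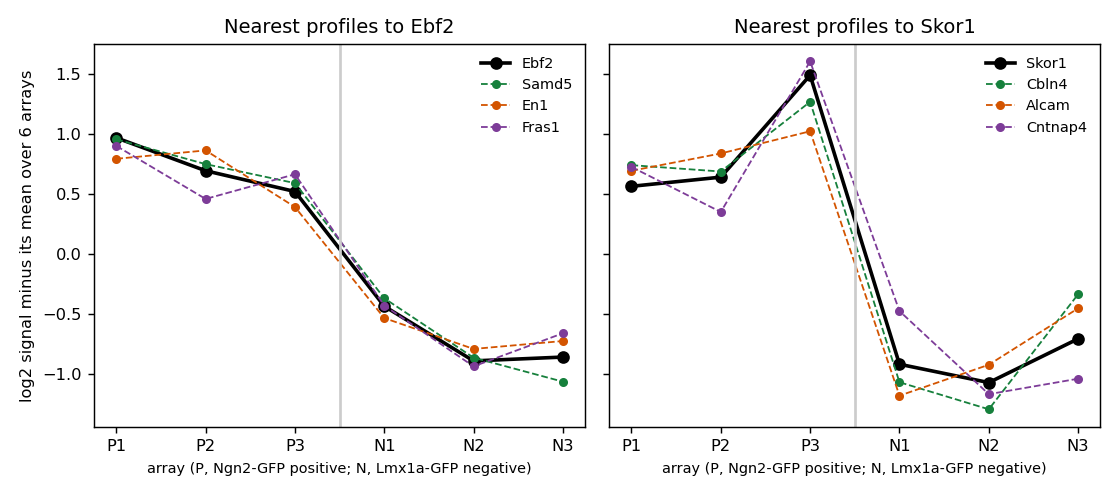
Log2 signal minus its mean over the 6 arrays for Ebf2 (left, 1449102_at) and Skor1 (right, 1437880_at), both in black. The 3 nearest tested genes are dashed, on the positive (P) and negative (N) arrays, with lines joining the values of 1 gene. The Skor1 group peaks on positive replicate 3, where Skor1 reached 888 against 468 and 494 on the other positive arrays, and the Ebf2 group does not.

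Genes known to act with these families were examined from lists that hold none of the 6 genes. Over 6 lists, 75 genes were tested, each counted once, and limma called 0 of them after Benjamini-Hochberg adjustment, against 1.06% of all genes. At an unadjusted p under 0.05 there were 9, or 12% of the 75, against 10.8% of all genes, and their median difference was -0.01, against 0.03 over all genes. Without positive replicate 3, 3 of them passed, Neurog2, Id4 and Myt1, 1 higher and 2 lower, in a fit where the group coincides with the spike-in split. On simulated arrays the fit recovered 13.6% of 2-fold and 60.9% of 4-fold changes, so a gene that did not pass may still differ.

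The first list held Ebf cofactors and genes of the neurogenic cascade, in which Neurog2 and its relatives act upstream of Ebf genes. None of its 18 tested members passed, 13 had positive values and the median was 0.19. Its brightest were Myt1, a zinc finger factor of neuronal differentiation, with mean signals of 2035 in positive cells and 2799.8 in negative cells (-0.49, SE 0.24, adjusted p = 0.491), and its relative St18 (-0.26, SE 0.23, adjusted p = 0.708). Ebf4 and the zinc finger partners of Ebf proteins, Zfp423 and Zfp521, are in this list and were singled out after their values were seen. Ebf4 was dim, with 51.8, 28.7 and 18.0 on the positive arrays, against 29.3, 23.15 and 23.13 on the negative arrays (0.26, SE 0.48, adjusted p = 0.877). Zfp423 differed by 0.10 (SE 0.24, adjusted p = 0.907) and Zfp521 by -0.40 (SE 0.26, adjusted p = 0.593). Of Ebf targets known from B lymphocytes, olfactory neurons and fat cells, 6 of 14 genes on the array exceeded the filter, none passed and the median was 0.44. All 6 fitted values were above 0, as were 6307 of the 12047 over all genes, but 2 of the 6, singled out after their values were seen, were dim and had no higher mean signal in positive cells. They were Vpreb1, with means of 19.7 in positive and 21.6 in negative cells, and Adcy3, with 16.2 in positive and 16.4 in negative cells. Omp and Foxo1 were dim as well, with means of 21.9 and 33.6 in positive and 20.6 and 14.4 in negative cells. The median therefore rests in part on dim genes. The 6 included Pax5, a B-cell factor that is also a midbrain and hindbrain patterning gene, with mean signals of 319.9 in positive cells and 218 in negative cells (0.51, SE 0.24, adjusted p = 0.487). Gnal, the olfactory G protein subunit, differed by 0.42 (SE 0.35, adjusted p = 0.682).

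None of 13 tested Ski relatives, co-repressors and ubiquitin ligases passed, 3 had values above 0 and the median was -0.03. The brightest were the histone deacetylase Hdac2 (-0.37, SE 0.27, adjusted p = 0.64) and the kinase Hipk2 (-0.46, SE 0.29, adjusted p = 0.582). Lbx1, the known partner of Skor1, did not exceed the filter. Of 13 ligands and antagonists of the TGF-beta and BMP pathways none passed, 6 had values above 0 and the median was -0.02. Fstl1, a secreted BMP antagonist, differed by -0.52 (SE 0.25, adjusted p = 0.489) and the ligand Tgfb2 by -0.12 (SE 0.27, adjusted p = 0.894). Of 16 receptors and Smads none passed, 6 had values above 0 and the median was -0.21. The receptors Bmpr2 (-0.00, SE 0.22, adjusted p = 0.998) and Acvr2a (0.10, SE 0.20, adjusted p = 0.887) had near equal signals in both populations. Of 12 Smad target genes none passed, 2 had values above 0 and the median was -0.57. Of these, Tgif1, Bambi and Smad7 are also counted in the lists above. The 2 lowest values were of dim genes, Col1a1 (means of 10.6 in positive and 20.5 in negative cells) and Bambi (17.1 and 34.7). The brightest of the 12 were Id4, an inhibitor of helix-loop-helix factors, with mean signals of 2904 in positive cells and 4164 in negative cells (-0.64, SE 0.33, adjusted p = 0.505), and Pmepa1, a feedback inhibitor of TGF-beta signalling (-0.11, SE 0.23, adjusted p = 0.891).

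**Figure D5:**
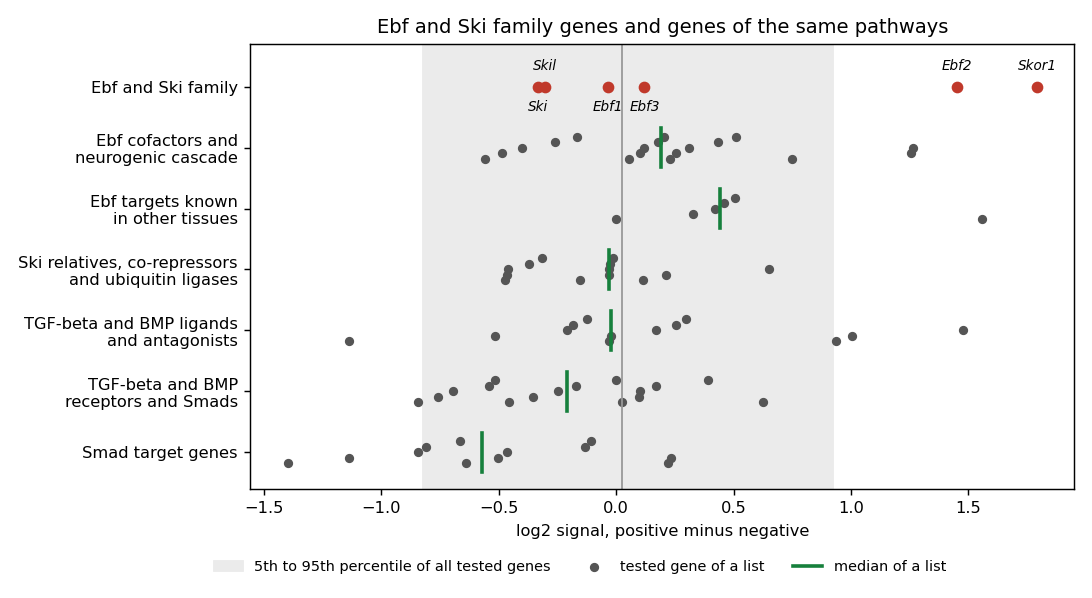
Log2 difference, positive minus negative, of the 6 Ebf and Ski family genes (red, brightest probe set) and of tested genes in 6 pathway lists (grey), with list medians (green) and the 5th to 95th percentile of all tested genes (shaded, -0.82 to 0.92). Ebf2 and Skor1 lie right of the shaded range and the other 4 inside it, and no grey gene passed the test.

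Markers of cell types that the sorted cells could hold were summed over the tested genes of each list. Of 8 dopaminergic markers, 5 (Lmx1a, Th, Slc6a3, Nr4a2 and En1) were higher in positive cells, and the summed signal was 4100.0 to 5297 on positive arrays, against 1619 to 1848 on negative arrays. Pitx3 of this list did not exceed the filter. Of 7 GABAergic markers, 5 (Tal2, Gata3, Gata2, Gad1 and Tal1) were lower in positive cells, with sums of 2442 to 2666 on positive arrays, against 5739 to 6023 on negative arrays. None of 8 early neuron markers passed, with sums that overlapped, 12532 to 18674 on positive arrays, against 15093 to 18396 on negative arrays. At an unadjusted p under 0.05 (limma) there were 2 of the 8, Gap43 higher and Ina lower, against 10.8% of all genes. Of 8 neural progenitor markers, 2 (Pax6 and Fabp7) were lower, with sums of 4895 to 7597 on positive arrays, against 8765 to 10238 on negative arrays. Of 7 erythroid markers, 6 were lower, with sums of 2571 to 3185 on positive arrays, against 10066 to 17173 on negative arrays. The exception was Hba-a2, which made up most of the positive sums, with means of 2365 in positive and 2619.5 in negative cells (log2 difference -0.13). Of 6 macrophage markers, 4 (Csf1r, Aif1, Tyrobp and C1qb) were lower, with sums of 39.4 to 46.4 on positive arrays, against 362 to 759 on negative arrays. C1qa, C1qc, Cx3cr1 and Mrc1 did not exceed the filter. Of the 6, 4 (Csf1r, Aif1, Tyrobp and Fcer1g) passed the filter only through the negative arrays, as did 3 of the 7 erythroid markers. The dopaminergic markers Lmx1a and Slc6a3 passed it only through the positive arrays. These counts are thus partly set by the filter. The part of the marker shifts in the differences of Ebf2 and Skor1 was not tested. Of 12 pericyte and mesenchyme markers, in whose cell types Ebf1 is also known, 3 exceeded the filter and none passed (0 at an unadjusted p under 0.05), with sums of 32.6 to 72.1 on positive arrays, against 53.1 to 81.5 on negative arrays. None of 8 endothelial markers exceeded the filter.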

How the data were processed

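Per the labels' protocols, biotin-labelled cRNA of each sorted sample went on its own array. The authors deposited linear intensity values, for which the submitters' processing notes name MAS5 and R 2.14.2, with each array scaled to the same 2% trimmed mean. Total RNA content is therefore not compared. Detection calls were not used here. The 6 genes and the lists were chosen with earlier results of these data known.

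Besides controls the table has 45037 probe sets, 34957 of them with a single gene symbol. Values were floored at 1 before log2. Tested were the 27738 probe sets above the 40th percentile of signals on 3 or more arrays, and a gene was represented by its brightest tested probe set. The 2 groups of 3 arrays were compared by lmFit and eBayes with a trend, two-sided, from limma 3.58.1 (R 4.3.3), with Benjamini-Hochberg adjustment over 12047 genes at 0.05, and tried on simulated arrays. SEs of further probe sets come from the same fit over probe sets. Where a group was dim on all its arrays, "at least N-fold" takes the higher of its signal and the 40th percentile. Named were the 6 genes, the gate checks Neurog2, Lmx1a and Th, the 3 nearest profiles of Ebf2 and of Skor1, and per list up to 4 called genes or else the 2 brightest, with marker lists given by counts and sums. The main fit did not pair arrays by replicate number. Deviations from the group mean correlated at 0.14, -0.10 and 0.03 between arrays of the same number. With 3 arrays per group these values cannot tell whether the replicates were paired. Alternatives covered scaling, filter, variance model, probe set choice, blocks and left-out arrays. The number of arrays limits precision. Promoters are those of RefSeq on GRCm38.p6. Plots used Python 3.11.15 and matplotlib 3.10.9.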

Additional observations from a re-analysis of the deposited data

How the results depend on the processing

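The Ebf2 difference of 1.45 lay between 1.25 and 1.53 over 7 alternatives (quantile normalization, median centring, log2 of the value plus 32, the mean of probe sets, the replicate block, and the 2 fits on the spike-in split) and between 1.33 and 1.60 with each array left out. Skor1, at 1.79, lay between 1.62 and 2.38 and between 1.50 and 1.96. It was 2.38 with the spike-in split as a block and also on the 4 arrays of the higher side, which both rest on positive replicate 3 as the only positive array, assumed to vary like the others. Ebf3 was 0.44 after quantile normalization and 0.53 on those 4 arrays, against 0.12. Over all genes, 128 were called (51 higher, 77 lower), and 19 without a filter, 42 without a trend, 34 with that block, 40 on the 4 arrays of the higher side and 57 to 417 with each array left out. The 417 came from leaving out positive replicate 3, after which the groups coincide with that split. With the replicate block 127 were called, and Ebf2 and Skor1 kept their values of 1.45 and 1.79. The pathway lists had 0 calls, and 0 to 3 with each array left out. The cause of these changes was not tested. With 3 arrays per group and no detection calls, differences of dim probe sets, such as the second of Skor1, could not be measured.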
